A study of Mus musculus with 5 samples.

Results

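The genes of the proteasome, the enzyme complex that degrades most ubiquitin-tagged proteins of a cell, were followed in mouse haematopoietic stem cells. Members were all rows whose gene symbol is Psma, Psmb, Psmc, Psmd or Psme followed by a number. This rule found 43 of the 33894 named genes, namely 19 core genes (Psma and Psmb), 20 regulatory genes (Psmc and Psmd) and 4 activator genes (Psme). Of these, 42 passed the filter on low counts and were tested, and Psmb11 had no count in any library.

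RNA was sequenced in bulk from cells sorted from the bone marrow of mice 8 weeks old. The sort took lineage-negative, Sca1-positive cells with high c-Kit that lacked CD34 and Flt3. There were 2 libraries of genotype WT and 3 called dKO, whose genotype combines Vav-cre with fl/fl alleles of both Lrp5 and Lrp6. In these mice Cre, driven by the Vav promoter in blood cells, is meant to delete the 2 Wnt co-receptors. Cre is named for dKO alone, so carrying Cre and lacking the receptors cannot be told apart. The labels give neither littermates nor separate animals for the replicates, and p-values then measure the spread between these libraries, which may be technical.

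The core particle is a barrel of stacked rings. Outer rings of alpha subunits gate the entry, and inner rings of beta subunits carry the protease sites. A regulatory particle caps the barrel: its base holds a ring of ATPases that unfold substrates, and its lid removes the ubiquitin chain. Stem cells are known for a low rate of protein synthesis. Some cells, blood cells among them, exchange the catalytic beta subunits for interferon-inducible ones, which forms the immunoproteasome. Activator proteins can bind the barrel in place of the regulatory particle.

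The libraries held 16028512 to 28027458 counts, with dKO replicate 2 the smallest. Its highest correlation with any other library was 0.851, whereas the other libraries each reached at least 0.906 with another. The targeted genes overlapped between the groups in counts. Lrp5 counts were 7 and 32 for WT against 37, 2 and 71 for dKO. For Lrp6 they were 660 and 232 (WT) against 790, 260 and 767 (dKO). Their log2 fold changes (dKO over WT) were 0.83 and 0.51, with 95% intervals from -3.47 to 5.12 and from -0.77 to 1.79. In TPM, Lrp6 stood at 5.18 and 2.11 for WT against 6.28, 5.83 and 5.35 for dKO, higher in every dKO library. Neither gene had the lower fitted level in dKO. Values per whole gene do not show which exons were read, so the deletion of the fl/fl alleles could not be checked. Groups are given here as the libraries were labelled. Stem cell markers (Procr, Mecom, Hlf and 8 more, 11 genes in all) were tested in full, with summed levels of 887.4 to 1879 CPM (counts scaled to library size, here with TMM factors). Among 9 genes of T and NK cells, 3 to 5 were at 0 in each library, Cd3e in every library. Nkg7 made up most of their summed level, which was 708.1 and 1883 CPM in WT and 566.3, 696.5 and 674.1 CPM in dKO. Cd3g had 178 counts in dKO replicate 2 and at most 21 in any other library.

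Proteasome transcripts were abundant in every library. Members took 1.29% and 1.38% of all counts of WT replicates 1 and 2, against 1.04%, 0.983% and 1.06% for dKO replicates 1 to 3. Both WT shares lay above all dKO shares. On the TPM scale, which divides by transcript length as well as library size and so allows genes to be set against each other, 30 of the 42 tested members were among the top 5% of 17777 genes above 0, by mean level. Core genes had a median mean level of 435 TPM, regulatory genes 229 TPM and activators 201 TPM. Levels ran from 12.4 TPM for Psme4 to 985 TPM for the catalytic subunit Psmb6. The smallest count of a tested member in any library was 468, for Psme4 in dKO replicate 2.

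Nearly all members had lower values in the libraries labelled dKO, and none passed the test on its own. Of the 42 tested members, 40 had a log2 fold change (dKO over WT) below 0, against 47.8% of the 13696 genes tested. Their median was -0.55, which is 0.682 times the WT level, whereas the median of all genes tested was 0.04. Every dKO library was below every WT library for 33 members in CPM, against 15.6% of all genes, and above for 0 members, against 13.7%. In edgeR's quasi-likelihood test, 20 members had an unadjusted p under 0.05 with the lower value in dKO, against 5.19% of all genes, and 0 with the higher value, against 4.94%. No member and no other gene passed at a Benjamini-Hochberg adjusted p under 0.05 (0.0% of 13696), and the smallest adjusted p of a member was 0.43.

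Abundant genes as a whole leaned the same way. Among the 2404 genes with a mean of at least 100 CPM, 68.0% had a log2 fold change below 0 with a median of -0.21, and 36.3% had every dKO library below every WT library. The share of them with an unadjusted p under 0.05 and a lower value in dKO was 19.3%. DESeq2 called 4 members lower at an adjusted p under 0.05 (Psmc5 0.0147, Psmd14 0.0148, Psmd13 0.0358 and Psma6 0.038), against 0.729% of the 12623 genes to which it gave an adjusted p.

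The size of the difference depended on the scale and on WT replicate 2. In TPM the median of the members was -0.29 on the log2(TPM + 1) scale, beside 0.14 for all genes. On that scale 23 members had every dKO library below every WT library, against 8.81% of all genes. Such separation was seen for 497 of the 2404 genes with a mean of at least 100 CPM. Every dKO library was above every WT library in TPM for 2 members, Psmd5 and Psmd9, against 2547 of the 13696 genes tested. WT replicate 2 held the highest CPM for 33 of the 42 members. Without it the median was -0.37, and 6 members had an unadjusted p under 0.05 with the lower value in dKO, where the share of all genes was also smaller, at 0.93%. Without dKO replicate 1, 11 members had an unadjusted p under 0.05 with the lower value in dKO, against 4.59% of all genes. Without both WT replicate 2 and dKO replicate 2 it was 3, against 1.56% of all genes, with a median of -0.34. With each library left out in turn, the median of the members ranged from -0.63 to -0.37.

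**Figure D1:**
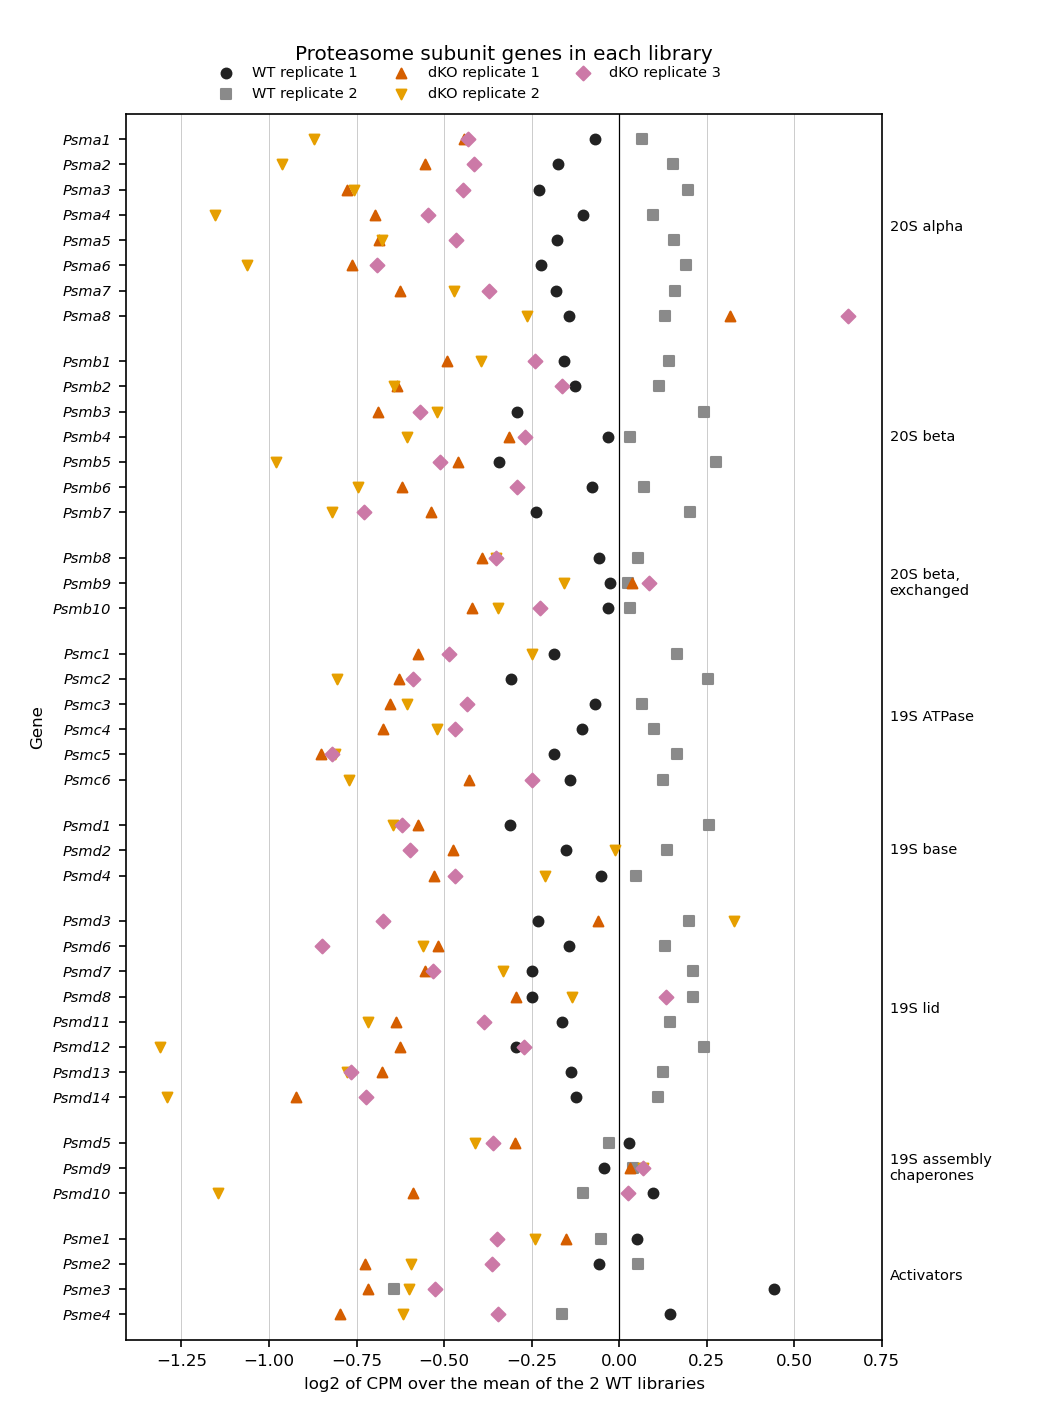
Level of each tested member in each library, as the log2 of its CPM over the mean of the 2 WT libraries (x axis), with genes grouped by their place in the complex (y axis) and 1 symbol per library. For 33 of the 42 members the 3 dKO symbols all lie left of both WT symbols; Psma8, Psmb9 and Psmd9 are among the exceptions.

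The promoters of 3 catalytic genes that hold a match are shown first, namely the constitutive Psmb5 and Psmb6 and the interferon-inducible Psmb8. The antioxidant response element core, TGACNNNGC, is bound by Nfe2l1 and Nfe2l2, which are known to drive proteasome genes under stress, and the GAS element, TTCNNNGAA, is known from promoters induced by interferon gamma. The windows are the 120 bases before the annotated start, 5′ to 3′ on the gene's strand, from RefSeq on GRCm38.p6. They lie at chr14:54617996-54618115 (minus strand) for Psmb5, chr11:70525237-70525356 (plus strand) for Psmb6 and chr17:34198075-34198194 (plus strand) for Psmb8. Capitals mark the antioxidant response element core in Psmb5 and Psmb6 and the GAS element in Psmb8.
Psmb5: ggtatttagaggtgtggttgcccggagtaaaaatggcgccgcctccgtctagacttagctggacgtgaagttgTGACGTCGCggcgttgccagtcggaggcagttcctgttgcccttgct
Psmb6: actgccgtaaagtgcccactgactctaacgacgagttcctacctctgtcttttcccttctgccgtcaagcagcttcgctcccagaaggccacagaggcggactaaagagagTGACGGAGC
Psmb8: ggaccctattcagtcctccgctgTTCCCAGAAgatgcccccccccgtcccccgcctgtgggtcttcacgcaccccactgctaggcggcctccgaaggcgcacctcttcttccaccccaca

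RefSeq promoters (250 bases before to 50 after the start, both strands searched) matched 36 of the 43 members. The antioxidant response element core was in the promoters of 6 of them (16.7%), namely Psmb5, Psmb6, Psmc6, Psmd9, Psmd12 and Psme4, against 14.0% of 27025 genes. The GAS element was found in 2 members (5.56%), Psmb8 and Psmd2, against 9.55% of genes. It was not found in the inducible subunits Psmb9 and Psmb10, and Psmb7 had no promoter to search. CCAAT was in 14 members (38.9%) against 41.1% of genes. The GC box, GGGCGG, was in 22 members (61.1%) against 38.2% of genes, made up of 6 of 15 core, 13 of 17 regulatory and 3 of 4 activator genes. These matches describe letters and not binding.

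Among core genes, the alpha ring, which forms the gate of the barrel, had the lowest median of the groups of subunits from counts, while in TPM the lid of the regulatory particle did (-0.48 against -0.43). Of the 8 alpha genes, 7 had a log2 fold change below 0 (median -0.62). Those same 7 had every dKO library below every WT library, against 15.6% of all genes, and an unadjusted p under 0.05, against 5.19%. Among genes with a mean of at least 100 CPM these shares were 36.3% and 19.3%. Psma6 had 310 and 413 CPM in WT and 213, 173 and 224 CPM in dKO. Its groups did not overlap, with a log2 fold change of -0.83 ± 0.21 (SE), an unadjusted p of 0.00455 and an adjusted p of 0.43. Psma4 had 344 and 395 CPM in WT against 228, 166 and 253 CPM in dKO. It too was separated, by -0.78 ± 0.22 (SE, adjusted p = 0.434), with its lowest value in dKO replicate 2. Psma5 had 369 and 465 CPM in WT and 259, 261 and 302 CPM in dKO, a log2 fold change of -0.61 ± 0.19 (SE, adjusted p = 0.436). Psma7, the most abundant alpha gene at a mean of 778 TPM, had 586 and 742 CPM in WT and 430, 479 and 513 CPM in dKO (-0.49). For Psma1, Psma2 and Psma3 the log2 fold changes were -0.57, -0.63 and -0.65. In TPM the groups overlapped for Psma3, at -0.04.

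Psma8 was the alpha gene that did not follow the others. It encodes the alpha subunit of the testis proteasome and takes the place of Psma7 there. Its level was the lowest of the core at 35.2 TPM. It had 32.8 and 39.7 CPM in WT and 45.2, 30.2 and 57.0 CPM in dKO, so that its groups overlapped, with a log2 fold change of 0.28 and a 95% interval from -0.56 to 1.12.

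All 7 constitutive beta genes had every dKO library below every WT library in CPM, against 15.6% of all genes. The share was 36.3% among genes with a mean of at least 100 CPM. In TPM 5 of the 7 were so separated, against 8.81% of all genes, while the groups of Psmb4 and Psmb5 overlapped. Their log2 fold changes from counts were -0.69 to -0.37 with a median of -0.54. An unadjusted p under 0.05 was found for 3 of the 7, against 5.19% of all genes and 19.3% of those abundant genes. Psmb7, which carries the trypsin-like site, had 187 and 254 CPM in WT and 152, 125 and 133 CPM in dKO. Its log2 fold change was -0.69 ± 0.21 (SE, unadjusted p = 0.012, adjusted p = 0.436). Psmb6, which carries the caspase-like site, had 533 and 591 CPM in WT and 366, 335 and 459 CPM in dKO, a log2 fold change of -0.54 ± 0.20 (SE, adjusted p = 0.446). Psmb5, which carries the chymotrypsin-like site and is the main target of bortezomib, had 88.6 and 136 CPM in WT and 81.7, 56.9 and 78.7 CPM in dKO. WT replicate 1 lay close to dKO replicate 1, and the difference of -0.63 had a 95% interval from -1.30 to 0.03. Psmb3, a structural subunit without a protease site, had 361 and 523 CPM in WT and 274, 308 and 298 CPM in dKO (-0.59 ± 0.21, SE, adjusted p = 0.441). The other structural subunits Psmb1, Psmb2 and Psmb4 had log2 fold changes of -0.37, -0.46 and -0.39.

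From counts, the interferon-inducible catalytic subunits had log2 fold changes nearer to 0 than the subunits they replace, a difference that was not tested. In TPM this held for Psmb8 (-0.21, Psmb5 -0.42) and Psmb10 (-0.15, Psmb7 -0.49) but not for Psmb9 (0.95, Psmb6 -0.36). The structural subunits Psmb1 and Psmb4, at -0.37 and -0.39 from counts, stood close to Psmb8 and Psmb10. Psmb8, the counterpart of Psmb5, had 405 and 437 CPM in WT and 321, 330 and 330 CPM in dKO. Its groups were apart, at -0.36 with a 95% interval from -0.74 to 0.01. Psmb10, the counterpart of Psmb7, had 246 and 257 CPM in WT and 188, 198 and 215 CPM in dKO, also apart, at -0.33 with an interval from -0.74 to 0.08. Psmb9, the counterpart of Psmb6, had 203 and 210 CPM in WT and 212, 185 and 219 CPM in dKO. The 2 groups overlapped at -0.01, with an interval from -0.43 to 0.41. Psmb11, which encodes the thymoproteasome subunit made in the thymic cortex, had 0 counts everywhere, and with 3 counts as the limit that a count of 0 allows its level was under 0.111 to 0.181 CPM, depending on the library, for counting error only.

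Libraries of both groups held transcripts of both kinds of catalytic subunit. Markers of other cell types were present too, and bulk values cannot tell which cells made these transcripts. The ratio of Psmb8 to Psmb5 in TPM was 2.9 and 2.01 in WT and 2.3, 3.64 and 2.56 in dKO, so that Psmb8 transcripts outnumbered Psmb5 transcripts in all 5 libraries. The ratio of Psmb10 to Psmb7 in TPM was 1.18 and 0.91 in WT and 1.11, 1.4 and 1.45 in dKO. Both ratios overlapped between the groups, with mean log2 differences of 0.20 and 0.34. Without WT replicate 2 the first difference was -0.06. With 2 against 3 libraries an exact two-sided permutation test cannot give a p under 0.2, and none was run.

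For Psmb9 the deposited scales disagreed. Its ratio to Psmb6 was 0.0261 and 0.0395 in WT and 0.0925, 0.169 and 0.0338 in dKO in TPM, which overlapped. From counts, the ratio was 0.381 and 0.356 in WT and 0.579, 0.553 and 0.477 in dKO, with every dKO library above both WT libraries. The TPM of Psmb9 itself was 30.3 and 43.8 in WT and 81.1, 134 and 33.3 in dKO. TPM per CPM of Psmb9 varied 4.86-fold over the libraries, the widest of all tested members, against a median of 1.28-fold for the members. In the GENCODE M21 annotation, exons of Psmb9 overlap 212 bases of Tap1 on the opposite strand, and Smart-seq2 in its standard form does not mark strand. Tap1, which encodes a peptide transporter of antigen presentation, had counts of 4678 and 2999 (WT) and of 4319, 4262 and 5366 (dKO), beside 5343 and 5249 and then 5742, 3065 and 5916 for Psmb9. The part of this overlap in the values was not tested.

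**Figure D2:**
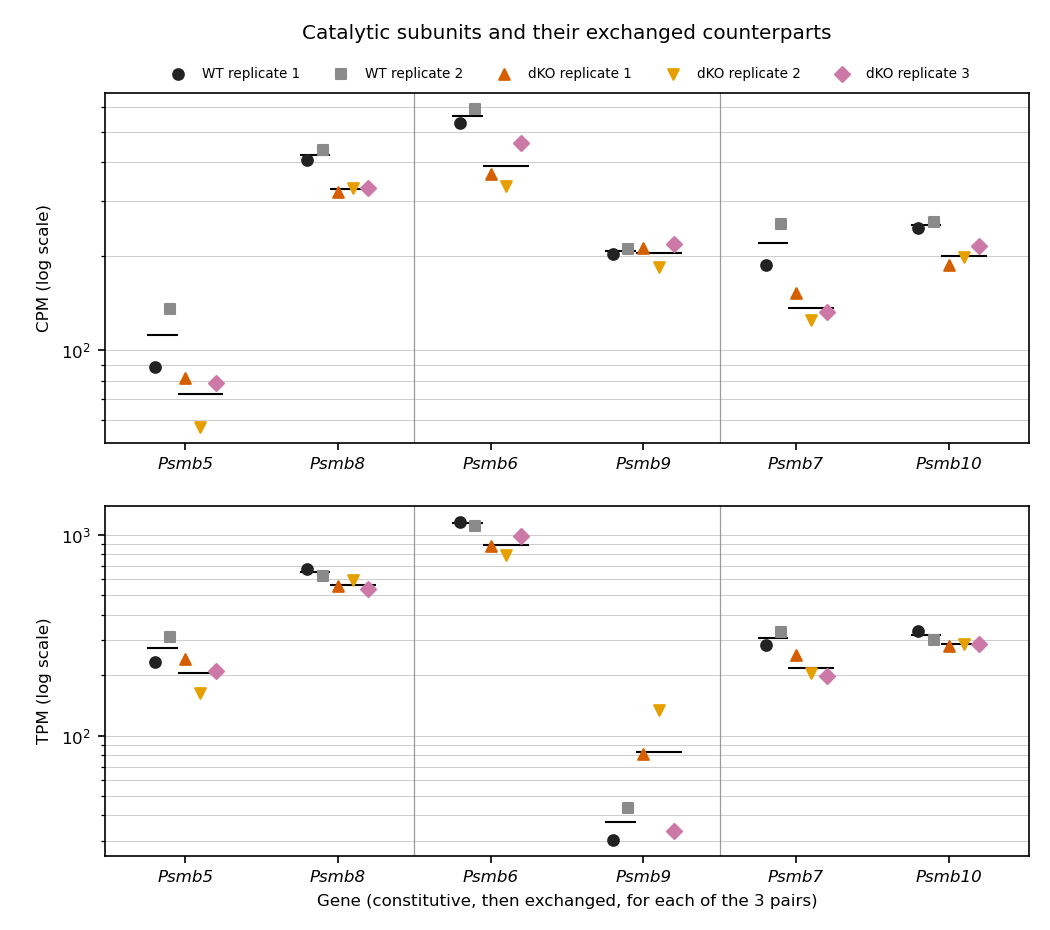
Constitutive catalytic subunits and their exchanged counterparts in each library, in CPM (upper panel) and TPM (lower panel), both on log scales, with 1 symbol per library and a bar at each group's mean. In CPM all dKO libraries lie below both WT libraries for every gene but Psmb9, whose TPM spreads from 30.3 to 134.

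In the regulatory particle, all 6 ATPases, which form the unfolding ring of the base, had every dKO library below every WT library in CPM. Such separation was seen for 15.6% of all genes and for 36.3% of genes with a mean of at least 100 CPM. In TPM 5 of the 6 ATPases had it, against 8.81% of all genes, and the groups of Psmc1 overlapped. The median of the ATPases from counts was -0.56. For 4 of them the unadjusted p was under 0.05, against 5.19% of all genes and 19.3% of those abundant genes. Psmc5 had 298 and 380 CPM in WT and 188, 193 and 192 CPM in dKO. The 3 dKO values lay close together (SD 2.53 CPM) and below both WT values, at -0.83 ± 0.19 (SE), with an unadjusted p of 0.00224 and an adjusted p of 0.43. Psmc3, the most abundant regulatory gene at 511 TPM, had 572 and 627 CPM in WT and 381, 394 and 444 CPM in dKO (-0.56 ± 0.17, SE, adjusted p = 0.436). Psmc4 had 320 and 369 CPM in WT and 216, 240 and 249 CPM in dKO, at -0.55 ± 0.18 (SE, adjusted p = 0.436). Psmc1, Psmc2 and Psmc6, the last of these the least abundant ATPase at 147 TPM, had log2 fold changes of -0.43, -0.67 and -0.47.

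The base also holds 3 subunits that are not ATPases. Psmd1, a large scaffold, had 277 and 411 CPM in WT and 231, 220 and 224 CPM in dKO, a log2 fold change of -0.61 ± 0.21 (SE, adjusted p = 0.441). Psmd4, a receptor for ubiquitin chains, had 322 and 345 CPM in WT and 231, 288 and 241 CPM in dKO, at -0.40 with an interval from -0.82 to 0.03. In TPM the value for Psmd4 was 0.04, and the groups of Psmd1, Psmd2 and Psmd4 all overlapped. Psmd2, the scaffold that docks ubiquitin shuttle proteins, had 574 and 702 CPM in WT and 459, 633 and 422 CPM in dKO, so that dKO replicate 2 lay between the WT libraries (-0.34).

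The lid showed the widest range of the regulatory groups, from -0.96 to -0.08 with a median of -0.60. Psmd14, the deubiquitinase that cuts the chain from the substrate, had the lowest log2 fold change of any member. It had 317 and 373 CPM in WT and 182, 141 and 209 CPM in dKO, or 0.514 times the WT level. Its log2 fold change was -0.96 ± 0.22 (SE), with an interval from -1.47 to -0.45, an unadjusted p of 0.00245 and an adjusted p of 0.43. Psmd13, a lid scaffold, had 215 and 258 CPM in WT and 148, 138 and 139 CPM in dKO (-0.74 ± 0.19, SE, adjusted p = 0.43). Its exons overlap those of Sirt3 on the opposite strand by 342 bases in GENCODE M21. Sirt3 counts were 8043 and 5359 (WT) and 6118, 5040 and 8479 (dKO). Those of Psmd13 were 5661 and 6451 (WT) and 4006, 2279 and 3745 (dKO). The part of this overlap in the values was not tested. Psmd6, another lid scaffold, had 228 and 276 CPM in WT and 176, 171 and 140 CPM in dKO (-0.63 ± 0.20, SE, adjusted p = 0.436).

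Other lid genes were less separated. Psmd12 had 253 and 367 CPM in WT and 201, 125 and 257 CPM in dKO, at -0.67, with dKO replicate 3 just above WT replicate 1. Psmd3, the least abundant lid gene at 83.3 TPM, had 86.1 and 116 CPM in WT and 97, 127 and 63.3 CPM in dKO, where the highest and the lowest library were both dKO. Psmd8 had 167 and 230 CPM in WT and 162, 181 and 218 CPM in dKO. The log2 fold changes of Psmd3 and Psmd8 were -0.08 and -0.09, and in TPM they were 0.09 and 0.10. Psmd7 is the inactive partner of Psmd14 and, at 323 TPM, the most abundant lid gene. Psmd7 and Psmd11 stood at -0.47 and -0.57, both with groups apart in CPM. In TPM the groups of Psmd7 overlapped.

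Genes with Psmd symbols that encode assembly chaperones of the base, and not subunits of the finished complex, did not share one direction. Psmd5 had 322 and 309 CPM in WT and 257, 237 and 246 CPM in dKO (-0.36, interval -0.75 to 0.03), yet its TPM was 199 and 141 in WT and 236, 217 and 203 in dKO, the opposite order. Psmd9 had 60.8 and 64.4 CPM in WT and 64.0, 65.7 and 65.7 CPM in dKO, a difference of 0.06. Its TPM was 40.8 and 37.2 in WT and 47.1, 47.5 and 43.2 in dKO, higher in every dKO library. Psmd10, also known as gankyrin, had 123 and 107 CPM in WT and 76.5, 52.0 and 117 CPM in dKO (-0.49), with dKO replicate 3 inside the WT range. Their median was -0.36 from counts and 0.23 in TPM.

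All 4 activator genes had a log2 fold change below 0, with a median of -0.56. For 3 of them every dKO library was below every WT library, against 15.6% of all genes. The share was 36.3% among genes with a mean of at least 100 CPM, a level that Psme3 and Psme4 did not reach. Psme1 and Psme2 encode the alpha and beta subunits of the interferon-inducible cytosolic activator. Psme2 had 475 and 513 CPM in WT and 299, 327 and 384 CPM in dKO, well apart, at -0.55 ± 0.18 (SE, unadjusted p = 0.0169, adjusted p = 0.437). Psme1 had 352 and 328 CPM in WT and 306, 288 and 267 CPM in dKO, a smaller gap of -0.25 with an interval from -0.64 to 0.15. Psme3, the nuclear homologue, had 116 and 54.6 CPM in WT and 51.9, 56.3 and 59.2 CPM in dKO. WT replicate 1 alone stood out, and without it the log2 fold change of Psme3 was 0.02 and the median of the 4 activators -0.31. Psme4, a large single-chain nuclear activator, had 48.1 and 38.8 CPM in WT and 25, 28.3 and 34.2 CPM in dKO (-0.58, interval -1.33 to 0.18). In TPM the value for Psme4 was 0.12, and only Psme2 kept its groups apart, with dKO lower, against 8.81% of all genes.

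**Figure D3:**
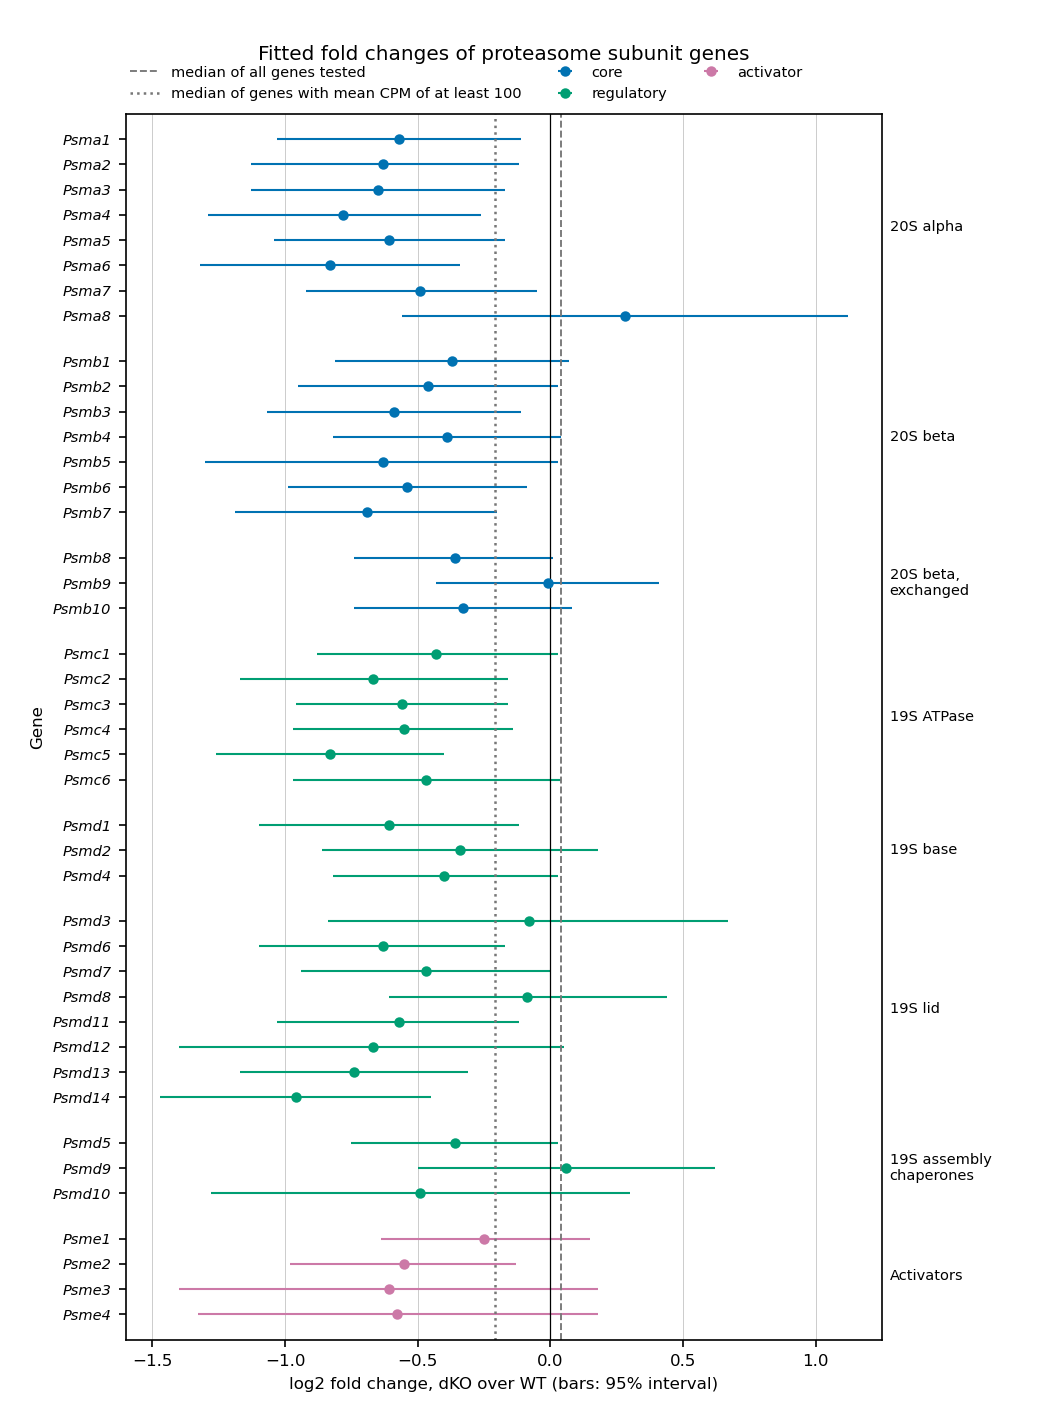
Fitted log2 fold change (dKO over WT, x axis) of each tested member (y axis) with its 95% interval, coloured by class. Points lie left of 0 for 40 of 42 members, while the dashed and dotted lines mark the medians of all genes tested (0.04) and of genes with a mean of at least 100 CPM (-0.21).

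Core, regulatory and activator genes had medians of -0.55, -0.52 and -0.56, and no difference between the classes was tested. Without WT replicate 2 these medians were -0.35, -0.37 and -0.61, and without WT replicate 1 they were -0.65, -0.64 and -0.31. By library, the median of the members against the WT mean was -0.13 and 0.13 in WT and -0.55, -0.60 and -0.42 in dKO. The lowest library was dKO replicate 2 for 20 members, dKO replicate 1 for 17, dKO replicate 3 for 4 and WT replicate 1 for 1.

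Genes that assemble the proteasome or bind it leaned the same way. Of 12 tested genes, 11 had a log2 fold change below 0 (median -0.35), against 47.8% of all genes. For 8 every dKO library was below every WT library, against 15.6%. An unadjusted p under 0.05 with the lower value in dKO was found for 3, against 5.19%. For genes with a mean of at least 100 CPM these 3 shares were 68.0%, 36.3% and 19.3%. Psmg1 and Psmg2 form a chaperone pair for the alpha ring. Psmg1 had 181 and 220 CPM in WT and 120, 96.1 and 129 CPM in dKO (-0.80, adjusted p = 0.434), and Psmg2 stood at -0.58. Uchl5, a deubiquitinase held at the base, had 243 and 338 CPM in WT and 173, 181 and 229 CPM in dKO (-0.58, adjusted p = 0.467).

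Genes that supply ubiquitin and substrates were more evenly divided. Of the 6 genes for ubiquitin and its activating enzymes, 4 had a log2 fold change below 0 (median -0.24). Rps27a, which encodes ubiquitin joined to a ribosomal protein, and the activating enzyme Uba1 stood at -0.35 and -0.29. Among 13 genes of ubiquitin shuttles and the Vcp segregase, 9 had a log2 fold change below 0 (median -0.11, and 0.01 in TPM). Groups overlapped for 11 of the 13, and for 9675 of the 13696 genes tested. Nsfl1c, a cofactor of Vcp, had 236 and 250 CPM in WT and 185, 158 and 174 CPM in dKO (-0.50, unadjusted p = 0.0256, adjusted p = 0.446). Vcp itself stood at -0.30 and its cofactor Faf2 at 0.55.

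Of the transcription factors known to drive proteasome genes, Nfe2l1 and Nfe2l2 had fitted RNA log2 fold changes above 0, with overlapping groups for Nfe2l1. Nfe2l2 had 105 and 107 CPM in WT and 151, 130 and 130 CPM in dKO, all dKO libraries above WT, at 0.37 (interval -0.10 to 0.84, adjusted p = 0.58). Keap1, which marks Nfe2l2 for degradation, stood at -0.44 with an interval from -1.25 to 0.38, and Nfe2l1 at 0.29 with an interval from -0.93 to 1.51. Of the 5 tested genes of this list 2, Keap1 and Bach1 (-0.30), were below 0 and the median was 0.10. The part of these factors in the proteasome values was not tested.

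Genes of interferon signalling and antigen processing, which share their induction with Psmb8 to Psmb10, Psme1 and Psme2, were divided. Of 18 genes 13 had a log2 fold change above 0 (median 0.23), against 7147 of the 13696 genes tested. An unadjusted p under 0.05 with the higher value in dKO was found for 2, against 4.94% of all genes. The 5 below 0 were Isg15 (-1.01), Ifit3 (-0.72), Ifit1 (-0.52), Stat2 (-0.49) and Erap1 (-0.48). By library, the median of the list against the WT mean was 0.28 and -0.28 in WT and 0.21, 0.17 and 0.37 in dKO. WT replicate 1 thus lay above dKO replicates 1 and 2. H2-K1, an MHC class I gene with close relatives in the genome, had 1770 and 1440 CPM in WT and 2290, 2970 and 2530 CPM in dKO (0.69, unadjusted p = 0.00908, adjusted p = 0.434). Irf1, an interferon-induced factor, had 64.0 and 43.1 CPM in WT and 67.9, 115 and 115 CPM in dKO (0.89, adjusted p = 0.452). Nlrc5, the activator of MHC class I genes, stood at 0.97 with an interval from -0.11 to 2.04. Tap1, which lies between Psmb9 and Psmb8 in the genome, had overlapping groups at 0.46.

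Proliferation markers also had lower values in dKO. All 13 of them (Mki67, Top2a, Mcm2 and others) had a log2 fold change below 0, with a median of -0.75. For 11 every dKO library was below every WT library, against 15.6% of all genes and 36.3% of genes with a mean of at least 100 CPM. None of the 13 markers was at 0 in any library. Their summed level was 3365 and 4061 CPM in WT and 2150, 2589 and 2207 CPM in dKO. Markers of granulocyte progenitors (10 of 10 below 0) summed to 6480 and 42290 CPM in WT and 12290, 15760 and 11100 CPM in dKO. WT replicate 2 had the most of them and WT replicate 1 the fewest. Stem cell markers had the higher value in dKO for 9 of 11 genes, and sums of 1346 and 887.4 CPM in WT against 1703, 1879 and 1618 CPM in dKO. Log2 fold changes above 0 were also seen for 8 of 8 megakaryocyte, 7 of 7 dendritic and MHC class II, 7 of 8 mast cell and basophil, 7 of 8 B cell, 7 of 8 monocyte and 7 of 10 erythroid markers tested. Among all 13696 genes tested, 7147 had a log2 fold change above 0. The part of cycling or of other cell types in the proteasome values was not tested, and in bulk samples fewer cells of a type and less RNA per cell cannot be told apart.

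**Figure D4:**
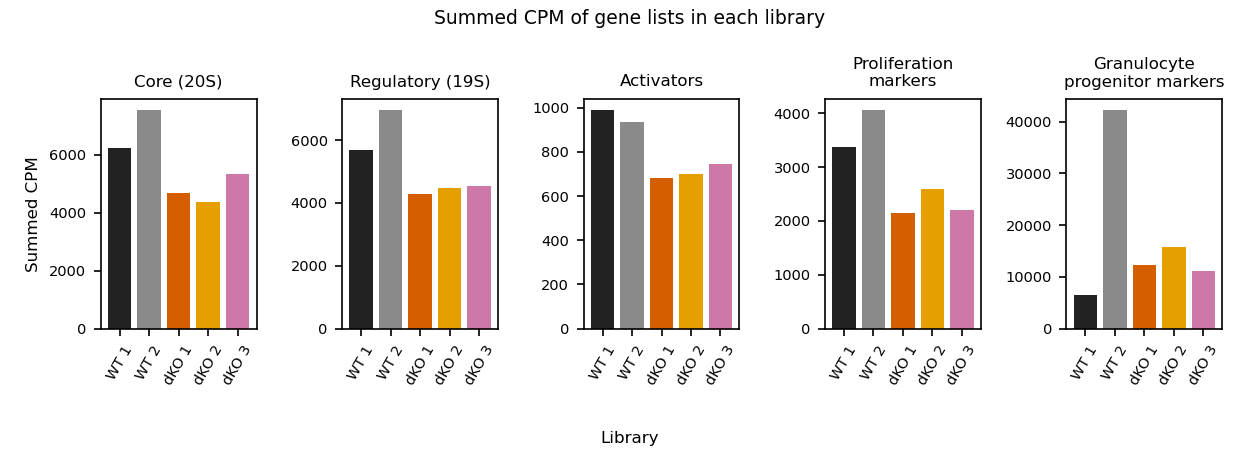
Summed CPM (y axis, from 0, a separate scale per panel) of core, regulatory and activator genes and of proliferation and granulocyte progenitor markers in each of the 5 libraries (x axis). Core sums were 6240 and 7548 CPM in WT and 4692, 4364 and 5331 CPM in dKO; the granulocyte sum of WT replicate 2 stands far above the other libraries.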

How the data were processed

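The authors deposited raw counts per gene and, in a second file per library, TPM. The submitters' processing notes list the build mm9 and, as tools, RSEM 1.2.31, DESeq2, HTSeq, Trimmomatic, TopHat2 2.1.1 and FastQC 0.11.5. The step each tool served was not stated. Per the labels' protocols, each library was made by Smart-seq2 from RNA of 6K cells. The 30 entries without a gene name (0.216% to 0.269% of the counts) were left out.

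Counts of all 5 libraries (2 WT, 3 dKO) were fitted with edgeR 4.0.16 in R 4.3.3 (TMM, filterByExpr, robust quasi-likelihood, 13696 genes, no covariate, Benjamini-Hochberg adjustment over all genes). The common dispersion was 0.461. Intervals cover 95%. Alternatives were DESeq2 1.42.0, limma-voom 3.58.1 with quality weights, RLE and upper quartile scaling, no filter, a minimum of 5 CPM in 2 libraries, log2(TPM + 1) or log2(TPM + 0.1) in limma, a replicate block, each library left out, and counts of near-identical pseudogenes added. On simulated counts (13696 genes, 13051 tested, 200 changed) 8.25% of the 2-fold changes were found by edgeR, and 47.4% of those of 4-fold, beside 1 false call. Libraries of a group differed beyond sampling noise (chi-square per degree of freedom 107 to 174).

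Members and gene lists were chosen with earlier results of these data known. Values are given for Lrp5, Lrp6, Psmb5 to Psmb10, all activators, the 3 members with the smallest p per subgroup, the lowest and highest TPM per subgroup, untested members and the 3 smallest p per further list; other members were named after their values were seen. A list gene that this rule would name is not reported here. Of 194 list entries, 191 matched by symbol, 1 by identifier and 2 (Paaf1, Ecm29) not at all.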

Additional observations from a re-analysis of the deposited data

How the results depend on the processing

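Over 16 alternative fits, 643 of 672 values of the tested members kept their sign and their side of the threshold; 4 passed it under DESeq2 alone and 25, of 7 members, changed sign. Genes called higher and lower in dKO numbered 0 and 0 with edgeR (unadjusted p under 0.05: 677 and 711), 162 and 92 with DESeq2, and 5 and 3 without a filter. They numbered 0 to 1 and 0 with a dKO library left out. Fits without a WT library hold 1 WT library, and their calls are not given. With the replicate block, 1 gene was called higher and 0 lower, and the medians of all, core, regulatory and activator members were -0.59, -0.65, -0.59 and -0.61. Same-numbered libraries correlated at 0.0325 and 0.0458 in their deviations and share only a number. With TPM (both pseudocounts) those medians were -0.29, -0.32, -0.29 and -0.20. Groups were apart, lower in dKO, for 9 regulatory members and 1 activator in TPM, against 14 and 3 in CPM. Over all genes the shares so separated were 8.81% in TPM and 15.6% in CPM. With a library left out the medians ranged from -0.63 to -0.37 (all), -0.65 to -0.35 (core), -0.64 to -0.37 (regulatory) and -0.65 to -0.31 (activator). Without WT replicate 2 and dKO replicate 2, an alternative chosen after seeing the data, the medians were -0.34, -0.32, -0.35 and -0.59. Members with an unadjusted p under 0.05 and a lower value numbered 20 with edgeR (5.19% of all genes), 23 with DESeq2 (5.71%), 26 with voom (6.73%), and 3 (1.80%) and 2 (1.56%) with TPM at a pseudocount of 1 and 0.1. The distance of the members' median from that of all genes was -0.59, in TPM -0.43, without WT replicate 2 -0.45. Signs changed for Psmb9 (0.03 with voom, 0.00 with upper quartile scaling, 0.02 with the 5 CPM filter, 0.95 and 0.97 with TPM, 0.01 without WT replicate 2, 0.07 without dKO replicate 2, 0.08 without both), Psmd3 (0.09 with TPM, 0.15 with the replicate block, 0.14 without WT replicate 2 and without dKO replicate 3), Psmd4 (0.04 with TPM), Psmd5 (0.38 with TPM), Psmd8 (0.10 with TPM, 0.16 without WT replicate 2, 0.01 without dKO replicate 1, 0.18 without WT replicate 2 and dKO replicate 2), Psme3 (0.02 without WT replicate 1) and Psme4 (0.12 and 0.13 with TPM). With libraries left out, Psmd3 ranged from -0.33 to 0.14 and Psme3 from -1.06, without WT replicate 2 and dKO replicate 2, to 0.02. The log2 ratio of Psmb8 to Psmb5 ranged from -0.06 to 0.47 with a library left out and was -0.25 without WT replicate 2 and dKO replicate 2; that of Psmb10 to Psmb7 ranged from 0.15 to 0.53 and was 0.10 without both; that of Psmb9 to Psmb6 ranged from 0.80 to 1.96. The cause of these changes was not tested. Near-identical pseudogenes (11, of 8 members) held at most 0.083% of a member's counts and adding them moved no median.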

Other observations

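Some members lie beside each other in the genome, and neighbours did not have equal differences. Psme1 and Psme2 are separated by Emc9 alone among the protein-coding genes of RefSeq on GRCm38.p6, with log2 fold changes of -0.25 and -0.55. Psmb9 and Psmb8 are separated by Tap1, with values of -0.01, -0.36 and, for Tap1, 0.46. Psmb5 and Psmb11 are immediate neighbours, and Psmb11 had no count. The 43 members lie on 16 chromosomes. These differences between neighbours were not tested.

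Besides Psmb9 and Psmd13, exons of Psmb7 overlap those of Nek6 on the opposite strand by 405 bases, and exons of Psmc3 overlap those of Slc39a13 by 215 bases. In all, 11 members overlap an exon of another gene. Nek6 counts were 2496 and 1379 for WT against 1773, 526 and 1459 for dKO. Whether the counting used strand is not stated by the sources read here, so the values of these members are uncertain to that extent.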
